A study of Arabidopsis thaliana with 12 samples.

Results

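The 48 genes described here had a bright probe on the array in wild-type (WT) Arabidopsis thaliana, and their WT and pete2 levels overlapped. They were chosen by 2 measured values. The probe had to list a single gene and reach a mean deposited intensity of 1 or more over the 6 WT samples, and the range of its quantile normalized values in WT had to overlap the range in pete2. Of the 3439 probes on the array 692 list a single gene, and 71 of these reached a WT mean of 1. The rule left out 9 of the 71 by name, among them PSAN and LHB1B2 of the photosystems, and 14 more because the ranges did not overlap. Over all 3321 probes tested, ranges did not overlap in 8.31%. Because the rule used the WT level and the contrast between the groups, both are given below as descriptions. Where genes of the 48 were among the calls of a fit over all probes, the count is given beside the share called over all probes and nothing is read from it.

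All 12 samples are total RNA of plants of ecotype Columbia 0 grown on soil, 6 of them WT and 6 from the pete2 mutant, which is without one of the plastocyanin isoforms. Tissue and plant age are not in the labels. Nor do they tell whether the samples numbered 1 to 6 came from separate plants, so the spread between samples may be technical. No probe names a plastocyanin gene, so the genotype could not be checked on its own transcript. Of 23 marker genes of tissues and cell types 1 was measured, the root marker AT2G48130. Its mean deposited intensity over 6 samples was 0.149 ± 0.0205 (SD) for WT, against 0.0672 ± 0.0473 (SD) for pete2. The tissue could not be checked from this 1 gene.

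Plastocyanin is the copper protein of the thylakoid lumen that carries electrons from the cytochrome b6f complex to photosystem I. Around photosystem I electrons can also run in a cycle, and one route of that cycle passes through the chloroplast NADH dehydrogenase-like (NDH) complex. The sugar made with this energy leaves the leaf mainly as sucrose. The intensity of a probe depends on the probe as well as on the transcript, so the order of the genes below is an order of brightness and not of transcript number. In these bulk samples fewer cells of a type and less RNA per cell cannot be told apart.

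The annotation names few of these genes. All 48 matched a RefSeq locus, but only 7 have a gene symbol beyond the locus number, and the other 41 are given here by locus with no role. The 7 are NdhS, CCL, PRA1.B6, RAP74, APTX, ATSPS4F and MAMI. Among functional groups built from the words of the annotation, photosynthetic electron transport held NdhS, the enzymes of metabolism held ATSPS4F, and transcription and signalling held RAP74 and PRA1.B6. The other 44 had no such annotation. The rule removes by name all 5 genes of the photosystem and antenna group and some of the Calvin cycle and tetrapyrrole groups. The ribosome group held 0 of the single-gene probes tested. Of the 665 such probes 630 fell in no group, because most have only a locus number. Genes of any group may be among these 630, so nothing is read from a group that is absent or small. In the fit described below, the electron transport group had 0 calls among 2 single-gene probes tested. The enzyme group had 3 lower calls among 13, ATSPS4F not among them, and the transcription and signalling group had 1 higher call among 3, which was PRA1.B6. Over all 3321 probes 4.91% were called higher and 6.29% lower.

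The label of abundant transcripts rests on mean values and was checked sample by sample. The WT means of the 48 genes ran from 1.01 to 54.4 with a median of 2.64. There were 6 genes at 10 or more, 20 between 2 and 10, and 22 under 2. Over all probes on the array 354, or 10.3%, reached a WT mean of 1, so the 48 are part of the bright end of the array. In 5 of the 48 the WT median lay under 1, and in 6 leaving out 1 WT sample took the mean under 1. The mean in pete2 was 1 or more for 36 of the 48. Summed over the 48 genes, the deposited intensity made up 5.98% to 10.8% of a WT sample's total and 7.82% to 11.3% of a pete2 sample's total.

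APTX, named for its likeness to aprataxin, which in humans repairs abortively ligated DNA ends, did not bear the label. It was listed at 0 in 4 of 6 WT and 5 of 6 pete2 samples. Its WT mean of 1.62 came from sample 3 at 7.82 and sample 6 at 1.91, and its only value above 0 in pete2 was 0.728 in sample 6. No level can be given for APTX from these values. AT1G76450 was listed at 0 in WT sample 4, and AT5G06010 in pete2 sample 5. The other 45 genes were above 0 in all 12 samples, and all 48 passed the filter that left out probes at 0 throughout.

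WT samples 5 and 6 stood apart from the other WT samples, and many of the results below rest on them. Over the 354 bright probes, the log2 levels of samples 5 and 6 correlated with those of WT samples 1 to 4 at r of 0.503 to 0.713, against 0.837 to 0.959 among samples 1 to 4 and 0.878 between samples 5 and 6. These are correlations across probes, which are not independent. In normalized values, samples 5 and 6 were either both below or both above all of WT samples 1 to 4 in 35 of the 48 genes (72.9%), with 15 genes lowest and 20 highest there. The same held for 63.3% of the 354 bright probes and 44.8% of the 3321 probes tested. The pattern thus ran across the array, more often in its bright part, and was not particular to the 48 genes. For comparison, WT samples 1 and 2 were both at an extreme in 14 of the 48 genes and samples 3 and 4 in 20. In pete2 samples 1 and 2 were both at an extreme of pete2 in 25 (59.3% of the bright probes), samples 3 and 4 in 15, and samples 5 and 6 in 24. The share of probes listed at 0 was 15.8% and 15.7% in WT samples 5 and 6 and 16.7% to 17.8% in the other WT samples. In pete2 it was 30.7% and 28.6% in samples 5 and 6 and 17.1% to 21.6% in the others. Its part in the results was not tested.

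**Figure D1:**
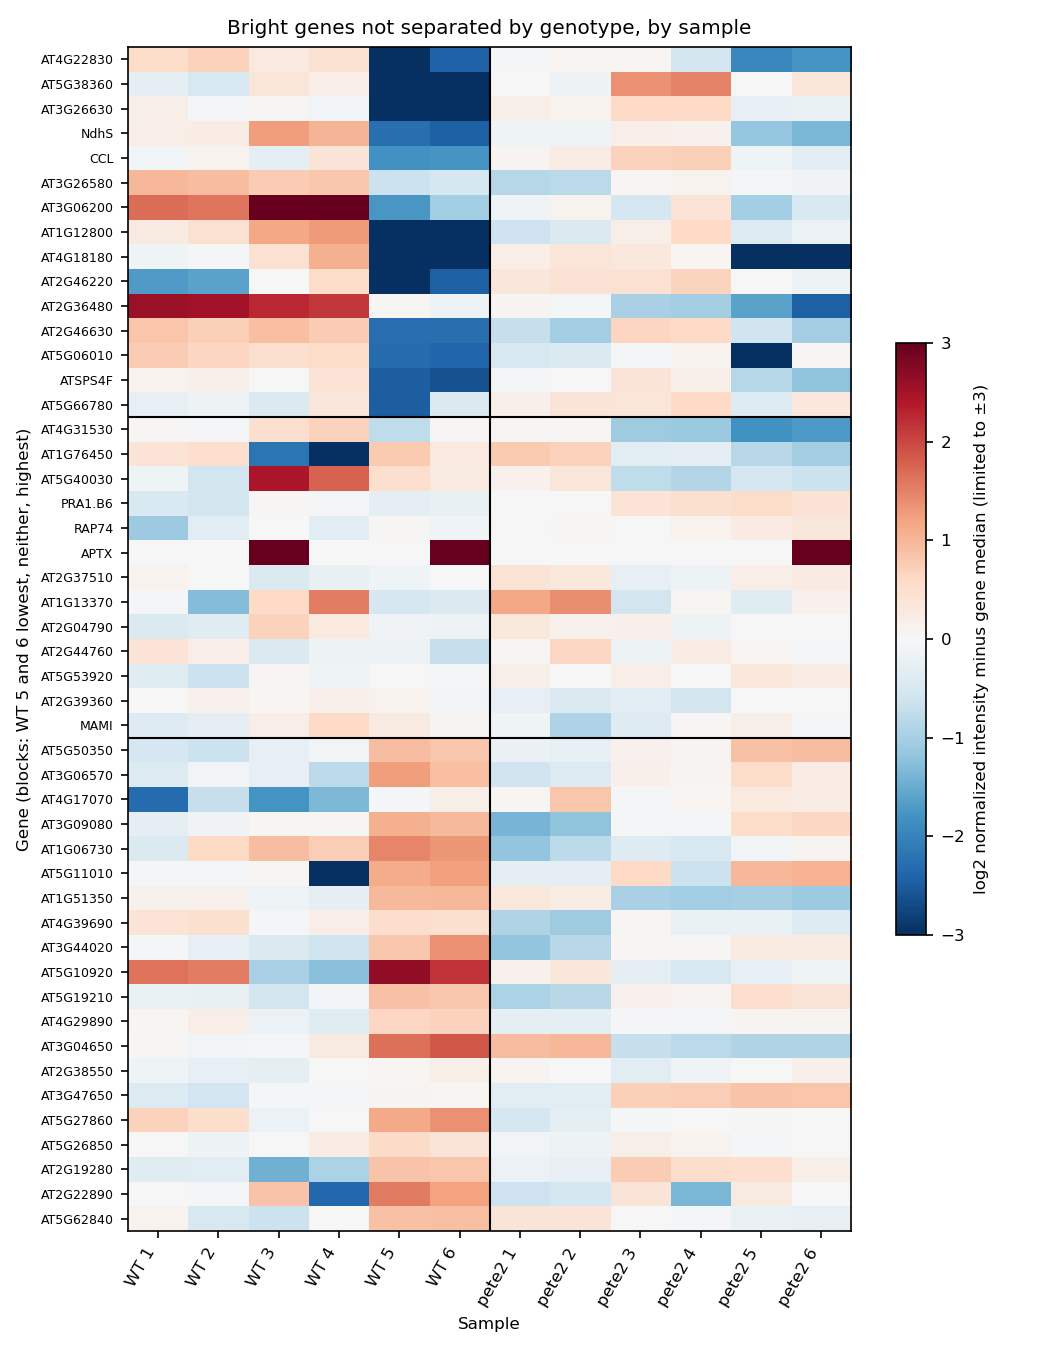
Log2 normalized intensity of the 48 genes (rows) in the 12 samples (columns), each gene shown relative to its own median over the samples, with colours limited to 3 log2 units either way. The upper block holds the 15 genes with WT samples 5 and 6 lowest in WT, the lower block the 20 genes with both highest, and the middle block the other 13.

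NdhS encodes a subunit of the chloroplast NDH complex, which takes up electrons from ferredoxin in cyclic transport around photosystem I. Its deposited intensity in WT was 6.81 and 6.97 in samples 1 and 2, 14.01 and 13.01 in samples 3 and 4, and 1.41 and 1.29 in samples 5 and 6. In pete2 it was 5.28, 5.51, 7.06, 6.68, 2.44 and 2.21 in samples 1 to 6. The samples numbered 5 and 6 were thus the lowest in both groups, and the pete2 values all lay inside the WT range. The log2 difference, pete2 minus WT, was -0.07 ± 0.648 (SE), and its sign changed with the scaling, to 0.52 with median centring. This SE and those below took the 12 samples as independent and may be too small. The only other gene of the electron transport group with a probe of its own, NdhN, also an NDH subunit, had 3 WT and 2 pete2 samples at 0.

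ATSPS4F encodes a sucrose phosphate synthase, an enzyme of sucrose synthesis. In WT it read 1.47, 1.52, 1.53 and 2.14 in samples 1 to 4, and 0.323 and 0.307 in samples 5 and 6. In pete2 it read 1.27, 1.27, 1.52 and 1.31 in samples 1 to 4, and 0.490 and 0.361 in samples 5 and 6. All pete2 values lay inside the WT range, and in both genotypes samples 5 and 6 were set far below the rest. Its log2 difference was 0.48 ± 0.571 (SE) after quantile normalization and -0.06 as deposited.

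CCL, named for its likeness to the CCR genes, is a transcript whose stability is known to follow the circadian clock. Its WT values were 6.74, 7.44, 6.54 and 9.83 in samples 1 to 4, and 1.99 and 2.10 in samples 5 and 6. In pete2 they were 6.31, 6.88, 13.4, 13.03, 6.59 and 5.98. Only WT samples 5 and 6 were far from the others, and samples 3 and 4 were the highest in pete2. The log2 difference was 0.78 ± 0.398 (SE).

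RAP74 encodes the large subunit of the general transcription factor TFIIF, which acts with RNA polymerase II. Its WT values had a lowest of 1.64, a median of 3.37 and a highest of 4.31, and in pete2 the lowest was 3.20, the median 3.58 and the highest 4.63. As deposited, WT samples 1 and 2 lay below all pete2 samples, and the other 4 WT samples inside the pete2 range. After normalization WT samples 1, 2, 4 and 6 lay below all pete2 samples. Sample 3 was then level with the lowest pete2 value of 3.50, and only sample 5, at 3.62, lay above it. PRA1.B6 belongs to the prenylated RAB acceptors, membrane proteins of vesicle traffic. Its WT values were 2.62 to 4.74 with a median of 3.14, and those of pete2 were 3.34 to 5.83 with a median of 5.09. As deposited, WT samples 3 and 4 lay inside the pete2 range and the other 4 below it. After normalization only WT sample 3, at 3.93, lay above the lowest pete2 value of 3.82. MAMI, a membrane-associated protein named as mannitol-induced, had 0.627, 1.06 and 1.45 as lowest, median and highest in WT, and 0.476, 0.6 and 0.769 in pete2. Neither PRA1.B6 nor MAMI had WT samples 5 and 6 together at an end of the WT range.

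Among the brightest genes known only by locus, the same samples set the range. AT4G22830 read 67.7, 88.9, 78.6 and 79.3 in WT samples 1 to 4, and 4.80 and 7.26 in samples 5 and 6. In pete2 it read 43.6, 47.8, 68.2 and 59.5 in samples 1 to 4, and 17.9 and 20.1 in samples 5 and 6. In normalized values, all pete2 samples lay below WT samples 1 to 4 and above WT samples 5 and 6. AT5G38360 read 20.0, 18.6, 32.8 and 32.9 in WT samples 1 to 4, and 2.69 and 2.66 in samples 5 and 6, against 26.6, 25.3, 85.0, 90.4, 30.6 and 38.4 in pete2. AT3G26630 read 18.2, 14.9, 18.8 and 19.7 in WT samples 1 to 4, and 2.14 and 1.42 in samples 5 and 6, while its pete2 values ran from 17.9 to 41.4. For both of these genes samples 3 and 4 were the highest in pete2.

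A second set of bright genes ran the other way, with samples 5 and 6 highest. AT5G50350 read 10.1, 9.08, 13.9 and 15.3 in WT samples 1 to 4, and 19.5 and 20.5 in samples 5 and 6. In pete2 it read 11.4, 10.8, 22.5 and 21.2 in samples 1 to 4, and 31.0 and 33.9 in samples 5 and 6. AT3G06570 was 8.77 to 10.4 in WT samples 1 to 4, and 18.4 and 17.7 in samples 5 and 6, with 22.0 and 19.9 in pete2 samples 5 and 6. AT3G09080 had 9.03 and 9.34 in WT samples 5 and 6, above 5.02 to 6.82 in the other 4, and 10.3 and 11.9 in the same samples of pete2. AT4G17070 had 9.32 and 13.1 in WT samples 5 and 6, against 2.58 to 7.74 in samples 1 to 4, and its pete2 values ran from 10.5 to 24.9. In these 4 genes samples 5 and 6 were the highest of both genotypes except for AT4G17070, whose highest pete2 value was in sample 2.

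**Figure D2:**
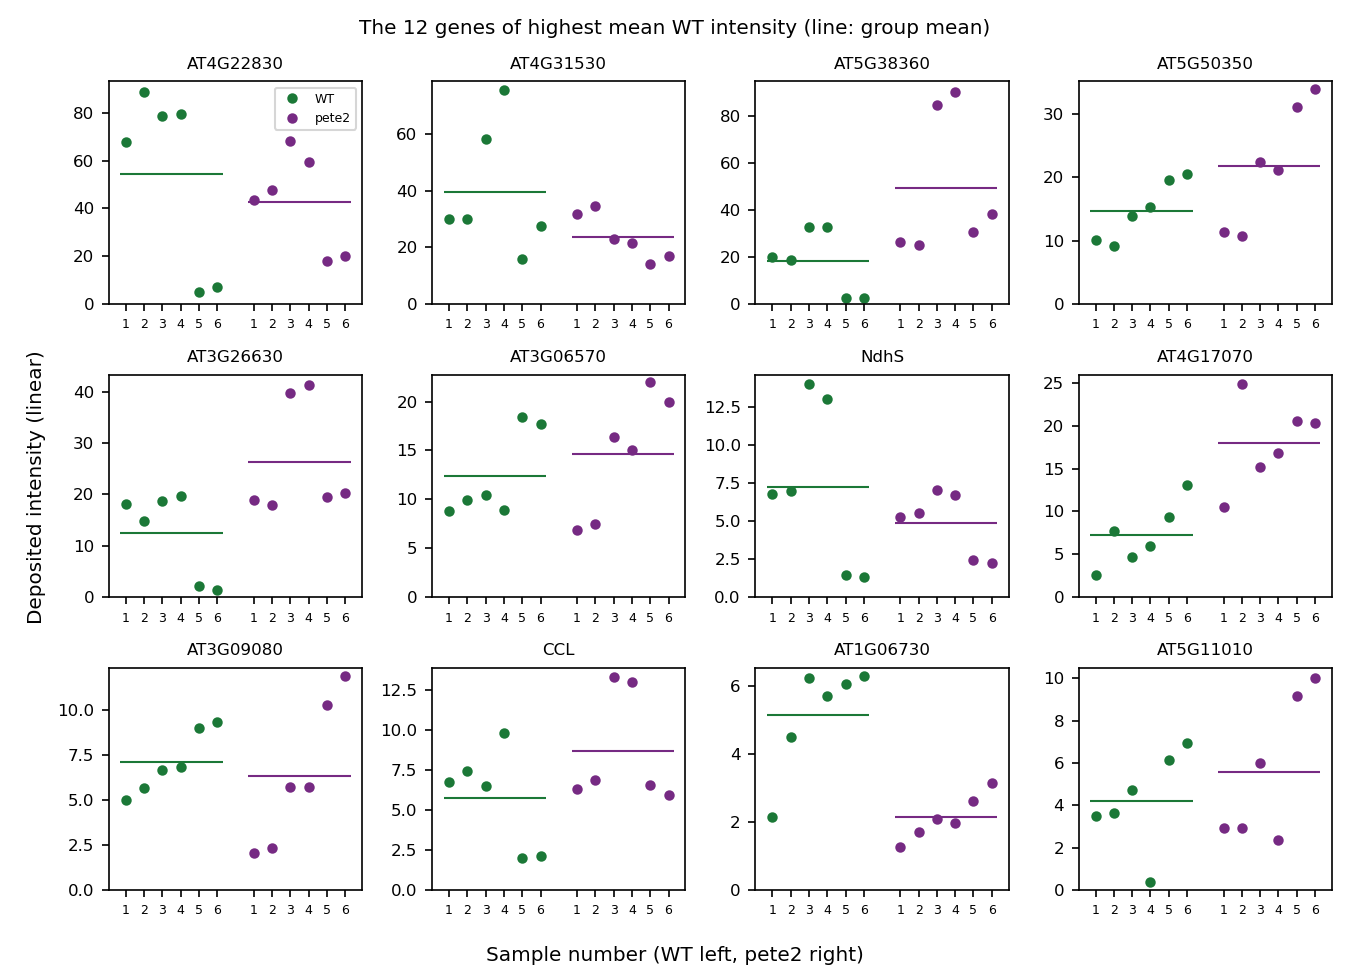
Deposited linear intensity by sample number for the 12 genes of highest mean WT intensity, with WT points and their mean on the left and pete2 on the right of each panel. AT4G22830, AT5G38360, AT3G26630, NdhS and CCL have their lowest WT values in samples 5 and 6, while AT5G50350, AT3G06570, AT4G17070, AT3G09080 and AT5G11010 have their highest there.

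Of the 35 genes with WT samples 5 and 6 at an extreme, 17 had pete2 samples 5 and 6 at the same extreme of pete2, 2 (AT3G04650 and AT5G62840) had them at the opposite one, and 16 had them at neither. These counts hold for normalized values. The 8 genes that were lowest in both groups were AT4G22830, AT3G26630, NdhS, CCL, AT4G18180, AT2G46220, AT2G36480 and ATSPS4F. As deposited, 2 of them were not lowest in pete2. Samples 5 and 6 of AT3G26630 and sample 5 of CCL lay above pete2 sample 1. As a share, 48.6% of the 35 went the same way and 5.71% the opposite way. Over the bright probes with WT samples 5 and 6 at an extreme the shares were 42.0% and 7.59%, and over all probes tested 19.5% and 13%. What the sample numbers stand for is not given.

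AT4G31530, with the second highest WT mean of the 48, read 30.1, 30.1, 58.5, 75.6, 15.8 and 27.5 in WT samples 1 to 6, and 31.9, 34.7, 23.0, 21.5, 14.2 and 17.1 in pete2. WT samples 3 and 4 were its high values, and samples 5 and 6 were the lowest of both groups as deposited. After normalization WT sample 5 alone was lowest in WT, and sample 6 read 38.7, above the 37.0 of sample 2. The log2 difference was -1.01 ± 0.371 (SE) and became 0.09 with median centring. AT5G11010 was 3.47 to 6.95 in 5 of the WT samples and 0.382 in sample 4, and 2.34 to 10.02 in pete2. The other 5 WT samples lay inside the pete2 range, and samples 5 and 6 were the highest of both groups. AT5G40030 had its high WT values in samples 3 and 4, at 9.84 and 6.72, with 1.23 to 2.36 in the other 4 and 0.734 to 2.07 in pete2.

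Other genes of this level had patterns of their own. AT5G10920 read 2.96 and 2.84 in WT samples 1 and 2, 0.643 and 0.514 in samples 3 and 4, and 5.16 and 3.94 in samples 5 and 6, while its pete2 values were 0.570 to 1.21. AT1G51350 read 3.04 to 3.54 in WT samples 1 to 4, and 4.91 and 4.95 in samples 5 and 6. In pete2 it read 3.27 and 3.04 in samples 1 and 2 and 1.21 to 1.36 in the other 4, so that pete2 sample 1 alone lay in the deposited WT range. After normalization pete2 samples 1 and 2 both lay in it. AT3G04650 was highest in WT samples 5 and 6, at 4.10 and 4.67, and lowest in the same samples of pete2, at 0.540 and 0.562. Its other values were 1.45 to 2.23 in WT and 0.670 to 2.68 in pete2.

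The spread within WT differed widely between the genes. The median SD of log2 normalized intensity was 0.844 within WT and 0.454 within pete2 over the 48 genes, and 36 of the 48 (75%) had the larger SD in WT. The order of the medians turned with median centring, to 0.682 in WT and 0.905 in pete2, and without samples 5 and 6 of both groups, to 0.316 and 0.351. Over all probes tested the order was the other way, with medians of 0.629 in WT and 1 in pete2 and a larger SD in WT in 29.8%. Over the 354 bright probes the medians were 0.469 and 0.439, and 55.4% had the larger SD in WT. A wide WT range helps 2 ranges to overlap, so the rule itself selects for it, and the 14 genes left out for ranges that did not overlap had medians of 0.387 and 0.315. Without WT samples 5 and 6 the median SD of the 48 genes within WT was 0.327.

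**Figure D3:**
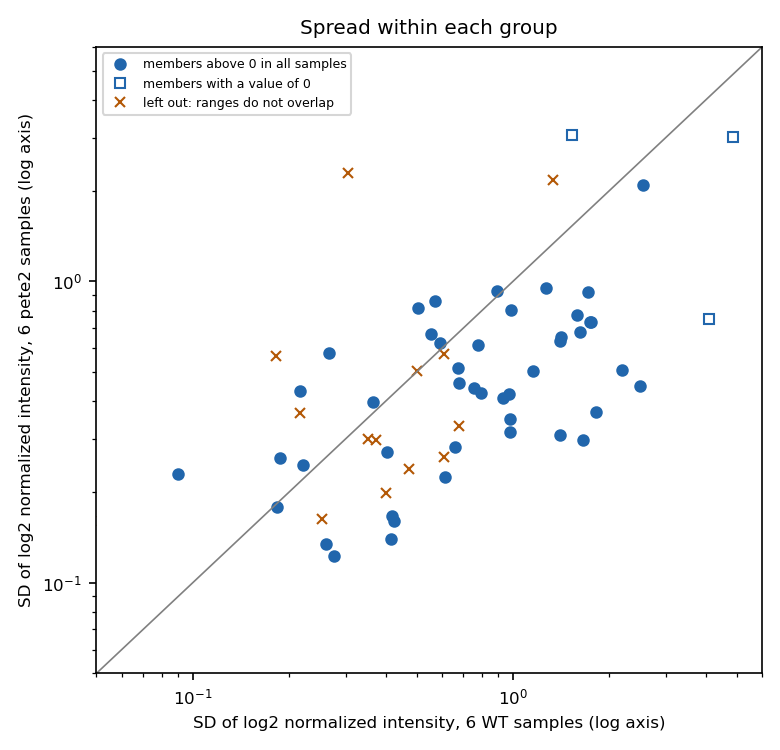
Standard deviation of log2 normalized intensity over the 6 WT samples (horizontal, log axis) and over the 6 pete2 samples (vertical, log axis), with a line of equality. Of the 48 genes 36 lie on the WT side of the line, and the crosses are the 14 genes left out because their ranges did not overlap.

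The 6 steadiest genes over the 12 samples were AT2G38550, AT5G26850, AT2G39360, AT2G37510, AT5G53920 and AT2G04790, with an SD of log2 normalized intensity between 0.175 and 0.31. The mean normalized intensity of AT2G38550 over 6 samples was 1.77 ± 0.227 (SD) for WT, against 1.83 ± 0.216 (SD) for pete2. For AT5G26850 it was 1.19 ± 0.235 against 1.04 ± 0.0893, and for AT2G04790 it was 1.15 ± 0.370 against 1.19 ± 0.134. For these 3 the group means differed by less than the SD within WT. For AT2G37510 (1.37 ± 0.172 against 1.63 ± 0.281) and AT5G53920 (1.06 ± 0.178 against 1.33 ± 0.122) they differed by more. This depended on the scaling. As deposited the means differed by more than the SD within WT in AT2G38550 and AT5G26850, and by less in AT2G04790, AT2G37510 and AT5G53920. AT2G39360 had the smallest SD within WT of the 48, with deposited values of 0.967 to 1.21, and 0.477 to 0.809 in pete2. Those deposited ranges do not touch, and they overlap only after normalization.

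The 6 genes of widest spread among those above 0 in all samples were AT4G18180, AT1G12800, AT2G36480, AT3G06200, AT5G38360 and AT3G26630, and in each of them WT samples 5 and 6 were the lowest of WT. AT4G18180 read 1.70 to 4.82 in WT samples 1 to 4 and 0.155 and 0.0909 in samples 5 and 6, and 1.67 to 2.19 in pete2 samples 1 to 4 and 0.0827 and 0.0307 in samples 5 and 6. In both genotypes samples 5 and 6 lay far below the other 4, and it had the largest SD over 12 samples of the genes above 0 in all, at 2.23. AT1G12800 had 0.107 and 0.181 in WT samples 5 and 6, against 1.80 to 4.44 in WT samples 1 to 4 and 0.863 to 2.14 in pete2. AT3G06200 read 1.78, 1.72, 6.04, 7.29, 0.222 and 0.371 in WT samples 1 to 6, and its pete2 values were 0.134 to 0.629.

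The differences between the genotypes were spread around 0. After quantile normalization 22 genes had a positive and 26 a negative log2 difference, with a median of -0.09, against -0.01 over all probes tested, and a range from -2.57 to 1.68. A difference of less than 1 log2 unit was found for 35 of the 48 (72.9%) and for 65.3% of all probes tested. The direction depended on the scaling. As deposited the median was -0.34 with 16 genes positive, where the median over all probes was -0.63. With median centring it was 0.36 with 33 genes positive, where the median over all probes was -0.01. In both settings the median of the 48 genes lay above that of all probes, and after quantile normalization below it. The sign was the same under 4 scalings (quantile, none, median centring and cyclic loess) in 29 genes, 14 positive and 15 negative.

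The largest positive differences among genes above 0 in all samples were those of AT2G46220 (1.68 ± 0.531 SE), AT5G38360 (1.67 ± 0.698 SE) and AT3G26630 (1.30 ± 0.686 SE). AT2G46220 read 0.805, 0.859, 3.06, 4.42, 0.390 and 0.602 in WT samples 1 to 6, and 2.01 to 3.78 in pete2. Its WT samples 3 and 4 reached into and above the pete2 range, and the other 4 lay below it. The largest negative difference of the 48 was that of AT2G36480, at -2.57 ± 0.59 (SE). It read 2.31, 2.30, 2.34 and 2.13 in WT samples 1 to 4, and 0.541 and 0.498 in samples 5 and 6. In pete2 it read 0.492, 0.449, 0.143, 0.132, 0.0514 and 0.0164. WT samples 5 and 6 lay just above pete2 samples 1 and 2 as deposited. After normalization they read 0.413 and 0.359, against 0.423 and 0.388 in pete2 samples 1 and 2, so the ranges overlapped.

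**Figure D4:**
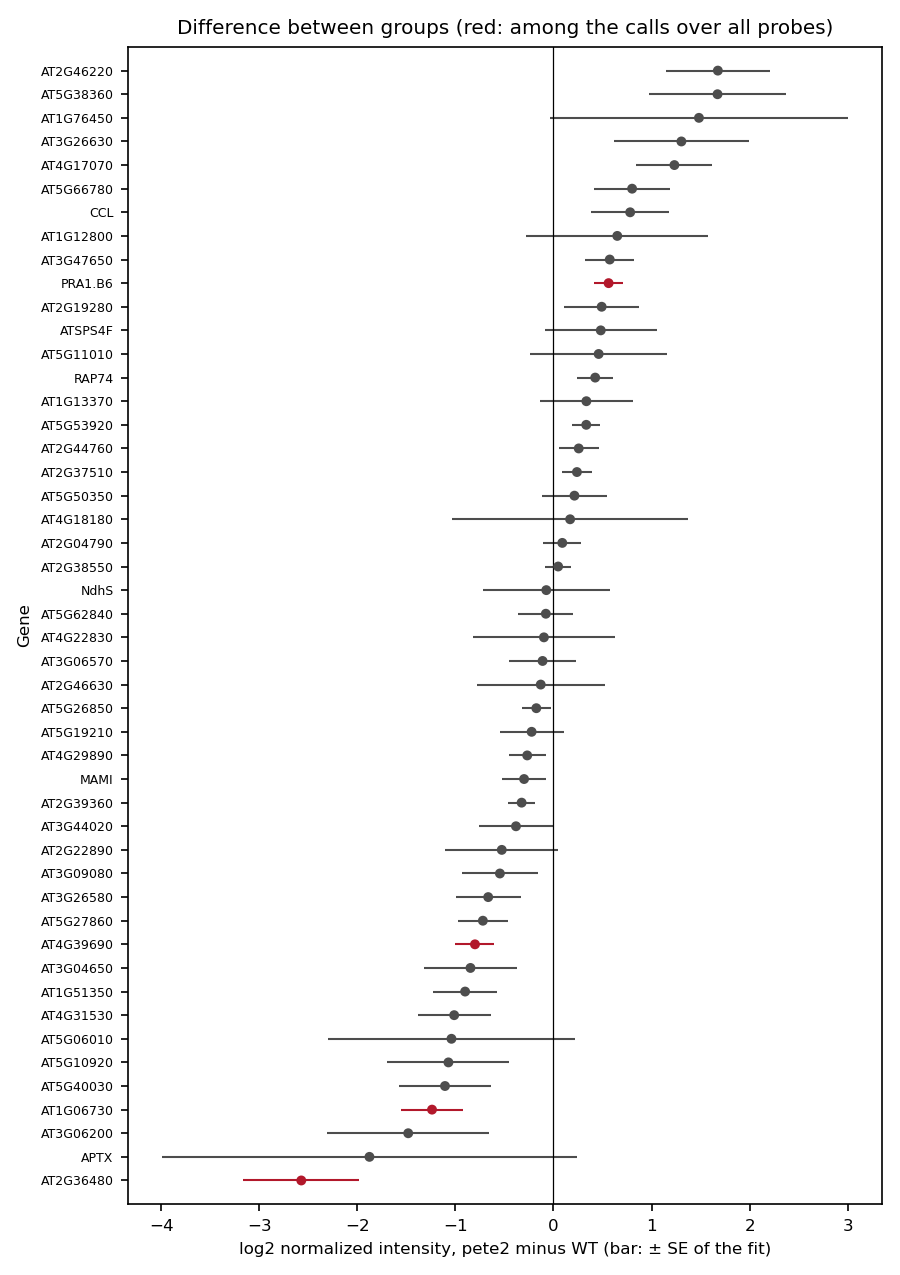
Log2 difference of normalized intensity, pete2 minus WT, for the 48 genes, with the standard error of the fit over all probes as bars. Points in red are the 4 genes, AT2G36480, AT1G06730, AT4G39690 and PRA1.B6, that were among the calls over all probes, and the rest of the points run from -1.88 to 1.68.

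Overlapping ranges do not make a difference absent. In the fit over all 3321 probes (limma, Benjamini-Hochberg adjusted p under 0.05), 11.2% of probes were called, 4.91% higher and 6.29% lower in pete2. Of the 48 genes 4 were among them, 1 higher and 3 lower. Among all probes with a WT mean of 1 or more 30.5% were called, and among the 71 with a single gene 29.6%. They were AT2G36480, AT1G06730 (-1.24 ± 0.312 SE), AT4G39690 (-0.80 ± 0.199 SE) and PRA1.B6 (0.56 ± 0.151 SE). Because the rule removed most genes that differed, nothing is read from this count. AT4G39690 read 3.39 to 3.82 in WT against 1.24 to 2.58 in pete2. AT1G06730 read 2.15 in WT sample 1 and 4.49 to 6.29 in the other WT samples, against 1.27 to 3.15 in pete2, so that WT sample 1 alone made the ranges overlap. Over the 354 bright probes r was 0.959 in WT and 0.961 in pete2 between samples 1 and 2. It was 0.869 and 0.951 between samples 3 and 4, and 0.878 and 0.856 between samples 5 and 6. Other pairs of samples reached 0.882 within WT and 0.922 within pete2. The fit took the 12 samples as independent. The correlation within pairs of neighbouring numbers, estimated over all probes, was 0.525, so the SE and adjusted p of that fit may be too small. With samples 1 and 2, 3 and 4, and 5 and 6 averaged in each group, 0 of the 48 and 0.331% of all probes were called. With these pairs as a random block (correlation 0.525) 1 of the 48 was called (AT2G36480), and 5.06% of all probes.

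Scaling also set which genes met the rule. In AT4G39690, AT2G36480, AT5G27860 and AT2G39360 the deposited ranges of WT and pete2 did not overlap, and they did so only after quantile normalization. The members with the smallest overlap were PRA1.B6, RAP74, AT4G39690 and AT5G53920, whose ranges shared 0.04 to 0.06 log2 units. Just outside, AT3G04210, XERICO, AT1G73430 and AT2G27290 were left out with gaps of 0.13, 0.20, 0.35 and 0.40 log2 units between the ranges. At the lower end of the level, AT2G19280, AT2G22890, AT5G62840 and MAMI were inside with WT means of 1.11, 1.11, 1.10 and 1.01. AT4G22190, AT4G23080, AT4G27700 and AT4G33540 were outside with 0.996, 0.971, 0.957 and 0.940.

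Membership rested on WT samples 5 and 6 for some genes. With these samples removed from the normalized values, the ranges no longer overlapped in 8 of the 48 genes. In AT4G22830, AT3G26580, AT3G06200, AT2G36480, AT2G46630 and AT5G06010 samples 5 and 6 had been the lowest of WT and the pete2 values lay below the rest. In AT4G17070 and AT2G19280 they had been the highest and the pete2 values lay above the rest. AT2G46630, for example, read 2.02 to 2.75 in WT samples 1 to 4 and 0.326 and 0.351 in samples 5 and 6, against 0.374 to 1.69 in pete2. Over all single-gene probes with a WT mean of 1 or more, ranges did not overlap in 25.4% with all 12 samples. The share over all probes without WT samples 5 and 6 is not given here. Removing samples can only narrow a range, for any probe, so nothing is read from the count of 8. With the normalization repeated without WT samples 5 and 6, the rule found 41 genes, 37 of them among the 48. The choice to leave these samples out was made after seeing the data.

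For the 3 genes of highest WT level that were above 0 in all samples, the probes with the most similar profile among the other 664 tested single-gene probes were found by the correlation of log2 levels over the 12 samples. AT4G22830 was most like AT1G10310 (r = 0.952), ATSPS4F and AT4G18180 (r = 0.929 for both), and without WT samples 5 and 6 these r were 0.887, 0.884 and 0.903 over 10 samples. AT5G38360 was most like LHB1B2, an antenna protein gene of photosystem II (r = 0.954), AT3G26630 (r = 0.950) and CCL (r = 0.945). Without WT samples 5 and 6 these fell to 0.649, 0.718 and 0.647, so much of the likeness lay in those samples. AT4G31530 was most like AT2G46910 (r = 0.908), AT1G65370 (r = 0.866) and AT2G36480 (r = 0.844), of which the first 2 were listed at 0 in 4 samples each. All points share the 12 arrays and their scaling, and the correlations are descriptions with no test. In the opposite direction AT4G22830 and AT5G50350 had r of -0.942 over 12 samples and -0.955 over 10.

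Another probe listed the same gene together with other genes for 7 of the 48. The correlation of log2 levels between such a probe and the single-gene probe over the 12 samples ran from -0.862 for AT4G31530 to 0.341 for AT2G38550, and was negative for 6 of the 7. A probe with several genes may report another of its genes, so the 2 probes need not measure the same transcript, and the values above hold for the single-gene probe only.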

How the data were processed

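Values were intensities from an array in 12 samples, deposited by the authors as 1 linear intensity per probe and sample. How the authors scanned, background-corrected and scaled the deposited intensity is not stated in the labels. The number of arrays limits the precision. Probe names came from GEO's platform annotation: 692 probes list a single gene, 870 several, and 1877 are unnamed here. RefSeq (TAIR10.1) matched 690 of the 692 and gave a symbol for 92. No probe, promoter or protein sequence was used here.

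The intensities were quantile normalized (limma 3.58.1, R 4.3.3), zeros kept at 0. For log2 values a floor at the 1st percentile of positive values (0.0056) was set, and probes at 0 throughout (118) were dropped, leaving 3321. The groups were compared with lmFit and eBayes with an intensity trend over all probes. The code was tested on simulated data. The members, lists and tests were chosen with earlier results of these data known. Genes were named by level (12 highest), steadiness (6 most, 6 least), zeros, edges of the rule, annotated function and likeness of profile. Further genes given as examples were picked after their values were seen. Alternatives were other scalings, floors, blocks and left-out samples.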

Additional observations from a re-analysis of the deposited data

Results flagged for a closer look

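In 6 of 96 groups of 6 samples (48 genes in 2 genotypes), 1 sample lay so far from the others on the log2 scale that its gap to the nearest, as a share of the group's range, exceeded Dixon's 95% critical value. Chance gives about 1 in 20 groups. In WT these were AT5G11010, where the gap was 0.739 of the range and sample 4 had a normalized intensity of 0.315 against 3.75 for the nearest, AT1G76450, where it was 0.716 and sample 4 was listed at 0, RAP74, where it was 0.687 and sample 1 had 1.64 against 2.83, and AT5G66780, where it was 0.721 and sample 5 had 0.239 against 0.977. In pete2 AT5G06010 had a gap of 0.926 with sample 5 listed at 0, and APTX had a gap of 1 with sample 6 at 0.952 and the 5 others at 0, so that any value above 0 there gives this gap. The sizes for AT1G76450 and AT5G06010 depend on the floor.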

How the results depend on the processing

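The rule found 48 genes, and between 44 and 50 when 1 sample was left out. It found 45 on deposited values, 54 with median centring and 47 with cyclic loess. With a WT mean of 2 or more it found 26, fewer by construction. The median log2 difference of the members was -0.34 as deposited and 0.36 with median centring, and from -0.166 to 0.063 with 1 sample left out, so its sign was not fixed. Of the members 7 were called as deposited (445 of all probes, 13.4%), 2 with median centring (275, 8.28%), 2 without an intensity trend (325, 9.79%), 1 under the random block (168, 5.06%) and 0 after averaging pairs (11, 0.331%). With pairs averaged limma gave an unadjusted p under 0.05 for 4 members (8.33%) and 13.9% of all probes, and over 12 samples for 15 members (31.2%) and 26% of all probes. With 1 sample left out 3 to 6 members and 287 to 423 probes were called, against 4 and 372. As deposited 13.5% of calls were higher in pete2, and without probes that hold a 0 it was 55%, against 43.8%.

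The median SD within WT was 0.682 with median centring, 0.703 with cyclic loess, 0.327 without WT samples 5 and 6, 0.316 without samples 5 and 6 of both groups, and 0.734 to 0.876 with 1 sample left out. Within pete2 it was 0.551 as deposited, 0.905 with median centring, 0.492 with cyclic loess, 0.351 without samples 5 and 6, and 0.451 to 0.488 with 1 sample left out. Median centring and leaving out samples 5 and 6 in each genotype thus turned their order. The cause was not tested. Of 912 values of single genes under the alternatives, 25 moved by more than the spread between samples and 0 of the called ones changed sign. This is a weak check. Averaging pairs cannot change a difference, and the higher floor changed only genes with a value of 0. The spread used was as wide as 4.05 log2 units, for APTX. Nearly all of the moves came with median centring or as deposited.

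With the replicate number as a block (replicate block), 324 probes (9.76%) and 5 of the 48 genes were called. AT4G39690 was not among them, with an adjusted p of 0.0609 (limma), and AT4G17070 (0.046) and AT2G46220 (0.0384) were. Deviations of same-numbered samples correlated over all probes at 0.0198 and 0.0409 for numbers 1 and 2 and at 0.136 to 0.283 for numbers 3 to 6, and 4 of 6 WT samples correlated best with their own number. Over the 48 genes the same-number correlation was 0.44 and 0.322 for numbers 1 and 2, and -0.0835 for number 3. For numbers 4 to 6 it was 0.493 to 0.668. For numbers 1 and 2 a sample of another number correlated better, at 0.586 and 0.628. The labels give no meaning to the numbers and not every pair correlated, so they were not taken as pairs. The 4 that did over all probes are a hint from the data.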
